A study of Homo sapiens with 12 samples.

Results

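RNA that co-purified with a fragment of TNIP2 was compared, gene by gene, with RNA that co-purified with the purification tag alone. HEK293T cells, a line derived from human embryonic kidney and widely used for transfection (the growth conditions name it HEK293), received a plasmid for the Halo tag alone or for a fusion of it to TNIP2 residues 196 to 346. The tag, an engineered enzyme that bonds covalently to a ligand on a resin, was then purified from the cell extract, and the RNA that came with it was sequenced after removal of ribosomal RNA. The 2 groups, called TNIP2 Pulldown and Control Pulldown here, had 3 libraries each. The Input libraries of both constructs, made from extract before purification and 3 per construct, complete the 4 groups of the series and are used below to set the spread and to ask whether total RNA differed too. Genes were included where the deposited normalized count was 10 or more in at least 3 of the 6 Pulldown libraries. This took in 14155 of the 25369 genes in the table, while 5565 were at 0 in all 6 Pulldown libraries and 5649 were above 0 but under the limit. Of the genes taken in, 457 reached 10 in exactly 3 libraries (median of their 6-library means 10.8), and 449 genes that reached it in exactly 2 (median 7.67) stayed out. Among the 457 were 93 that reached it through the TNIP2 Pulldown libraries alone and 132 through the Control Pulldown libraries alone, so that these had to differ.

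TNIP2, also called ABIN-2, is an adaptor protein that binds ubiquitin chains, associates with A20 (the product of TNFAIP3) and stabilises the kinase TPL-2 (the product of MAP3K8), and it is known for restraining NF-kB signalling. NF-kB is a family of transcription factors held in the cytoplasm by inhibitors such as the product of NFKBIA, and released when kinases mark these inhibitors for destruction by the proteasome. A pulldown followed by RNA sequencing reports which transcripts travel with a protein through purification, directly or within larger complexes, and a tag-only pulldown reports what the tag and resin carry by themselves. The design has the limits of its parts. The bait was a fragment expressed from a plasmid in cells that also have their own TNIP2, the tag alone was the single control, and the labels do not say whether RNA and protein were cross-linked or whether the 3 replicates came from separate transfections. The p-values therefore reflect how much these libraries vary, and that variation could be technical. The amount of RNA recovered per purification is not stated either. A normalized count describes the make-up of a purified pool, and more of one transcript cannot be told apart from less of the others.

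The purified libraries of the TNIP2 fragment stood apart from all others. Correlations of log2 values over the genes tested were 0.958 to 0.987 within TNIP2 Pulldown and 0.971 to 0.978 within Control Pulldown, but 0.849 to 0.884 between them. Control Pulldown resembled the extract, with 0.957 to 0.987 against the 6 Input libraries, whereas TNIP2 Pulldown had 0.834 to 0.894. Among all genes, 38.6% to 43.4% lay at least 2-fold from the Control Pulldown mean in each TNIP2 Pulldown library, against 1.12% to 1.77% in the Control Pulldown libraries. The Input libraries had 1.56% to 2.11%, except TNIP2 Input replicate 3 with 8.32%. Depth, recovered as whole reads from the steps of the deposited FPKM values, differed as well. It was 3592127 to 6404678 reads in Control Pulldown and 10312549 to 29529000 in TNIP2 Pulldown, and a read was worth 1.602 to 2.862 and 0.5105 to 1.226 normalized counts. Low genes were therefore measured less precisely in Control Pulldown.

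The transfected gene was examined first, since its transcript checks the labels. TNIP2 had normalized counts of 1472, 309 and 391 in the 3 Control Pulldown libraries and 51905, 69806 and 193013 in TNIP2 Pulldown. All 3 libraries of the fragment lay far above all 3 of the tag alone, with a log2 difference of 7.30 (SE 0.57, adjusted p = 1.1e-07). Control Pulldown replicate 1 was well above the other tag-only libraries, for a reason that was not tested, and without it the log2 difference was 7.99. The plasmid carries part of the gene, and TNIP2 also differed between the extracts, by 6.26 on the log2 scale. The excess in Pulldown over Input, 1.04, did not pass the test (adjusted p = 0.31).

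Most of the transcriptome differed between the purified pools, in both directions about equally. With limma on log2(normalized count + 1), 8602 of 14155 genes (60.8%) passed, with a threshold of 0.05 on the adjusted p. Of these, 4471 (31.6%) were higher in TNIP2 Pulldown and 4131 (29.2%) lower, and 2871 (20.3%) and 2440 (17.2%) differed at least 2-fold. Every TNIP2 Pulldown library lay above every Control Pulldown library for 4581 genes (32.4%) and below for 4239 (29.9%), and 8095 of the called genes were among these. Differences of at least 8-fold were called for 99 higher and 37 lower genes. The log2 difference had a median of 0.05 and quartiles of -0.72 and 0.83, and for 653 genes its 95% interval lay within -0.5 to 0.5. These shares are the background for each gene group below: a group with near 31.6% higher and 29.2% lower does not differ from genes at large. Thinning all libraries to the reads of the shallowest gave 7922 calls, and 7699 of the 8602 were among them in the same direction. Centring the libraries on cytosolic ribosomal protein genes instead (the centring, below) moved the median of all genes to -0.30 and gave 2929 higher and 5306 lower genes, so that 35.6% of the calls were higher in place of 52.0%. All directions below are relative to the deposited scaling, and where another scaling turns the sign of a printed list median, or moves it by over 1.5 times, the other value is given beside it. Leaving out 1 Pulldown library turned the sign of the median in 10 of 48 lists, each within 0.22 of 0, so that medians of that size give no direction.

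**Figure D1:**
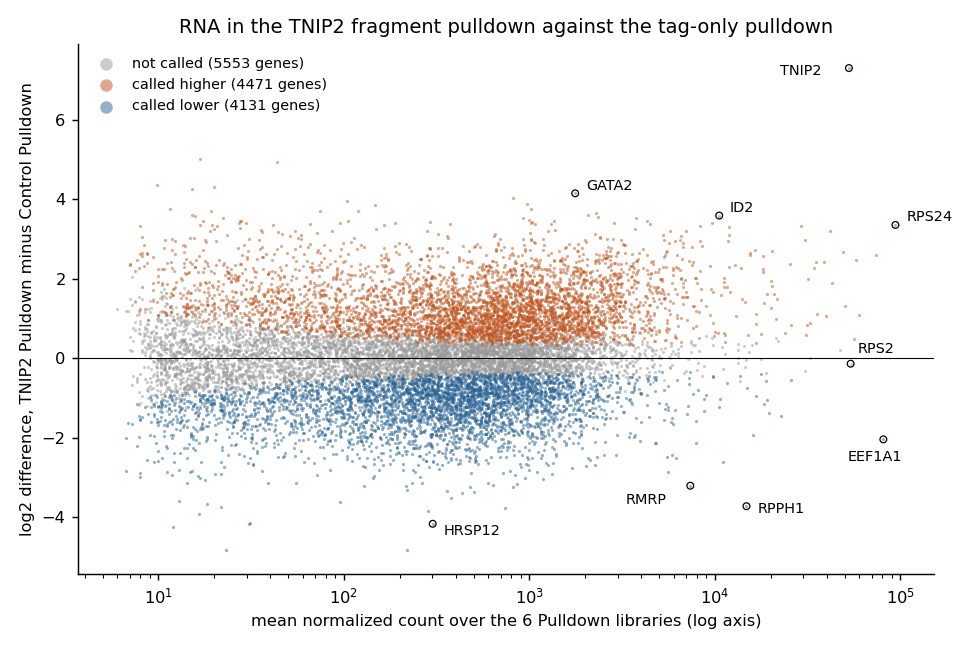
Each point is 1 of the 14155 genes tested, with its mean normalized count over the 6 Pulldown libraries on a log axis and its fitted log2 difference, TNIP2 Pulldown minus Control Pulldown, on the vertical axis. Orange marks the 4471 genes called higher, blue the 4131 called lower and grey the 5553 not called, and differences in both directions are seen at all levels.

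The genes with the highest differences included regulators of transcription and signalling and 1 small nucleolar RNA. GATA2, which encodes a transcription factor of blood stem cells, had 198, 187 and 177 normalized counts in Control Pulldown and 2952, 3425 and 3654 in TNIP2 Pulldown, a 17.7-fold difference (log2 4.15, SE 0.25, adjusted p = 1.6e-08). MT2A, a metallothionein that binds zinc and copper, had 77, 120 and 81 against 1698, 1865 and 1077 (log2 4.04, SE 0.24). ID2, which inhibits helix-loop-helix transcription factors by pairing with them, had 1661, 1553 and 1594 against 21330, 21868 and 15327 (log2 3.59, SE 0.17, adjusted p = 3.9e-09). Separate libraries were a condition for the 15 highest and 15 lowest genes, so that separation in them gives no support. In these 3 genes the spread within each group was small beside the gap. SMAD7, an inhibitor of TGF-beta receptor signalling, had 152, 165 and 121 against 1598, 1789 and 1694 (log2 3.54, SE 0.18). STX3, a syntaxin of vesicle fusion, had 619, 578 and 571 against 6238, 8309 and 6138 (log2 3.53, SE 0.17). PCDH8, a protocadherin of cell adhesion, had 6, 8 and 18 against 139, 142 and 131 (log2 3.70, SE 0.42). These groups were separate by the same condition, at low and at high levels. CMTM8 (3.88), ZSCAN5A, a zinc finger gene (3.84), MRPL34, of the mitochondrial ribosome (3.66), TSHZ1, a zinc finger homeobox gene (3.60), BHLHE40, a helix-loop-helix repressor (3.54), and C21orf119 (3.49) were also among the 15 highest by log2 difference.

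Among these highest genes, BCL2L12 and HSPA6 had uneven libraries. BCL2L12 had 189, 260 and 53 normalized counts in Control Pulldown, with replicate 3 low, and 1781, 1851 and 1973 in TNIP2 Pulldown (log2 3.75, SE 0.43, adjusted p = 3.8e-06). HSPA6, an inducible Hsp70 chaperone, had 9, 11 and 3 against 43, 39 and 608 (log2 3.71, SE 1.10, adjusted p = 0.0093). Its call rests on TNIP2 Pulldown replicate 3, without which the log2 difference was 2.42 (adjusted p = 0.055), and it was not made by voom on recovered reads (adjusted p = 0.082). The read counter's strand setting is not given in the sources used here, and 13 of the 30 genes with the highest and lowest differences share bases with another gene model of RefSeq (GRCh38.p14), so that reads of both may be pooled. For MRPL34 and ABHD8 the shared stretch is 76.0% of MRPL34, for GATA2 and GATA2-AS1 it is 29.0% of GATA2, and for BCL2L12 and IRF3 it is 8.16% of BCL2L12. It is 100% of TMEM256 (with TMEM256-PLSCR3) and of SNORD30 (with SNHG1), 72.3% of C4orf48 and 55.2% of ZSCAN5A.

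The lowest genes included membrane and secretory pathway genes and non-coding RNAs. HRSP12, an enzyme that clears reactive imines, had 593, 569 and 551 normalized counts in Control Pulldown and 35, 23 and 36 in TNIP2 Pulldown (log2 -4.17, SE 0.18, adjusted p = 2.9e-09). SELM, a selenoprotein of the endoplasmic reticulum, had 576, 548 and 465 against 38, 26 and 47 (log2 -3.84, SE 0.22). SEC11C, a catalytic subunit of the signal peptidase complex, had 916, 849 and 606 against 77, 57 and 88 (log2 -3.40, SE 0.23). No overlap between groups was a condition for naming these genes, and the TNIP2 Pulldown values were low in all 3. TMEM147, a membrane protein of the endoplasmic reticulum, had 1564, 1490 and 1364 against 166, 120 and 188 (log2 -3.23, SE 0.19). LINC00998 had 1415, 1391 and 1311 against 113, 97 and 91 (log2 -3.77, SE 0.15), and its model lies wholly within another one. The other protein-coding members of the 15 lowest were C9orf16 (-3.52), DDT, a tautomerase (-3.36), TMEM256 (-3.33), PDZD11 (-3.31), C4orf48 (-3.23) and TMEM160 (-3.21), with LINC01311 (-3.63) and 3 small RNAs treated below.

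**Figure D2:**
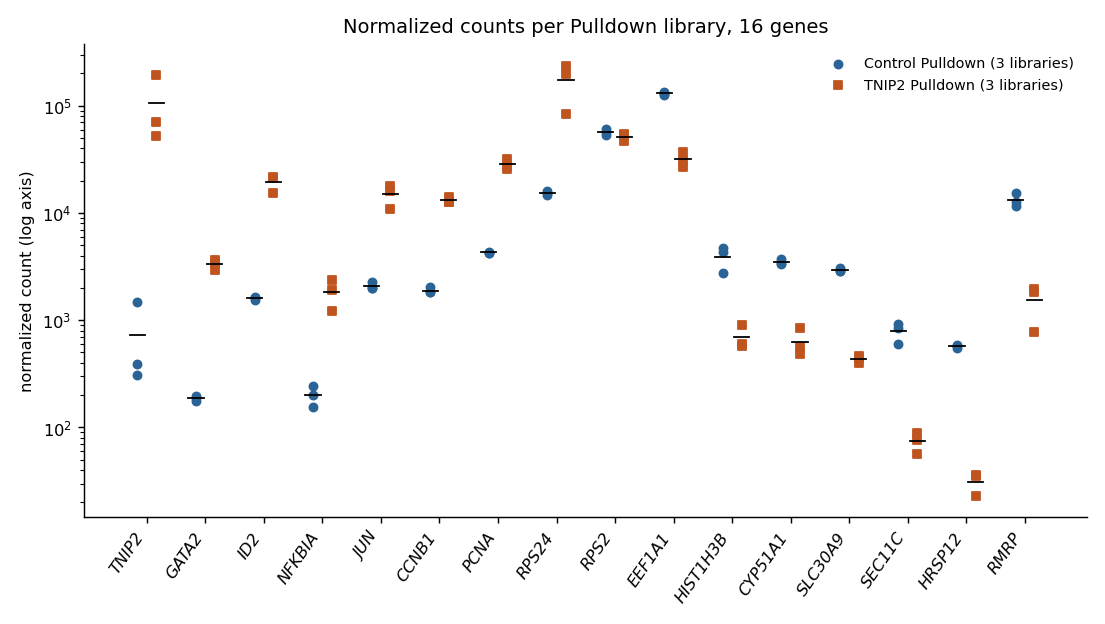
Normalized counts on a log axis for 16 genes named in the text, with 1 point per library, blue circles for the 3 Control Pulldown libraries, orange squares for the 3 TNIP2 Pulldown libraries, and a line at each group mean. Groups overlap only for RPS2, at 53015 to 60410 against 46504 to 54536.

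Cytosolic ribosomal protein genes, which encode the proteins of the 2 ribosomal subunits and whose levels are normally held together, were spread widely. Of 50 large subunit genes, 27 were higher, 9 lower and 14 not called (median log2 difference 0.60, range -2.62 to 2.71), and the median was -0.22 after quantile normalization and 0.25 after the centring. Of 32 small subunit genes, 14 were higher and 11 lower (median 0.05, range -2.14 to 3.35), with medians of -0.62 after quantile normalization and -0.30 after centring on these genes themselves. RPS24 had 14712, 15431 and 16176 normalized counts in Control Pulldown and 197752, 237089 and 83149 in TNIP2 Pulldown (log2 3.35, SE 0.28, adjusted p = 1.9e-07). RPS25 had 6833, 8222 and 8678 against 84784, 96714 and 45916 (log2 3.20, SE 0.23), and RPL35A had 4648, 5532 and 5778 against 43156, 37224 and 25709 (log2 2.71, SE 0.19). In each of them replicate 3 was the lowest TNIP2 Pulldown library and still several times above Control Pulldown. At the other end RPL29 had 19389, 20439 and 17025 against 3302, 3306 and 2660 (log2 -2.62, SE 0.18, adjusted p = 4.3e-08). RPL30 had 9058, 9118 and 9948 against 1653, 1667 and 1684 (log2 -2.49, SE 0.14), and RPS12 had 11805, 13716 and 13206 against 2828, 3566 and 2486 (log2 -2.14, SE 0.15). These 3 genes were low in every TNIP2 Pulldown library. RPS2, one of the most abundant, had 56267, 53015 and 60410 against 46504, 54536 and 52935, with overlapping groups and a log2 difference of -0.14 (adjusted p = 0.48) whose 95% interval was -0.50 to 0.21; it was lower after quantile normalization (-1.74, adjusted p = 5.5e-07) and after centring on this gene class (-0.49, adjusted p = 0.027). RPL19 (2.46) and RPL10A (2.27) were higher, as was RPS6 (1.09), whose call ended under quantile normalization (0.29, adjusted p = 0.26). RPS9 (-2.09), RPS3A (-1.38), RPL13 (-1.05) and RPS18 (-0.56) were lower. Many of these genes have near-identical processed copies in the genome, so that reads assigned to them are uncertain to that degree.

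**Figure D3:**
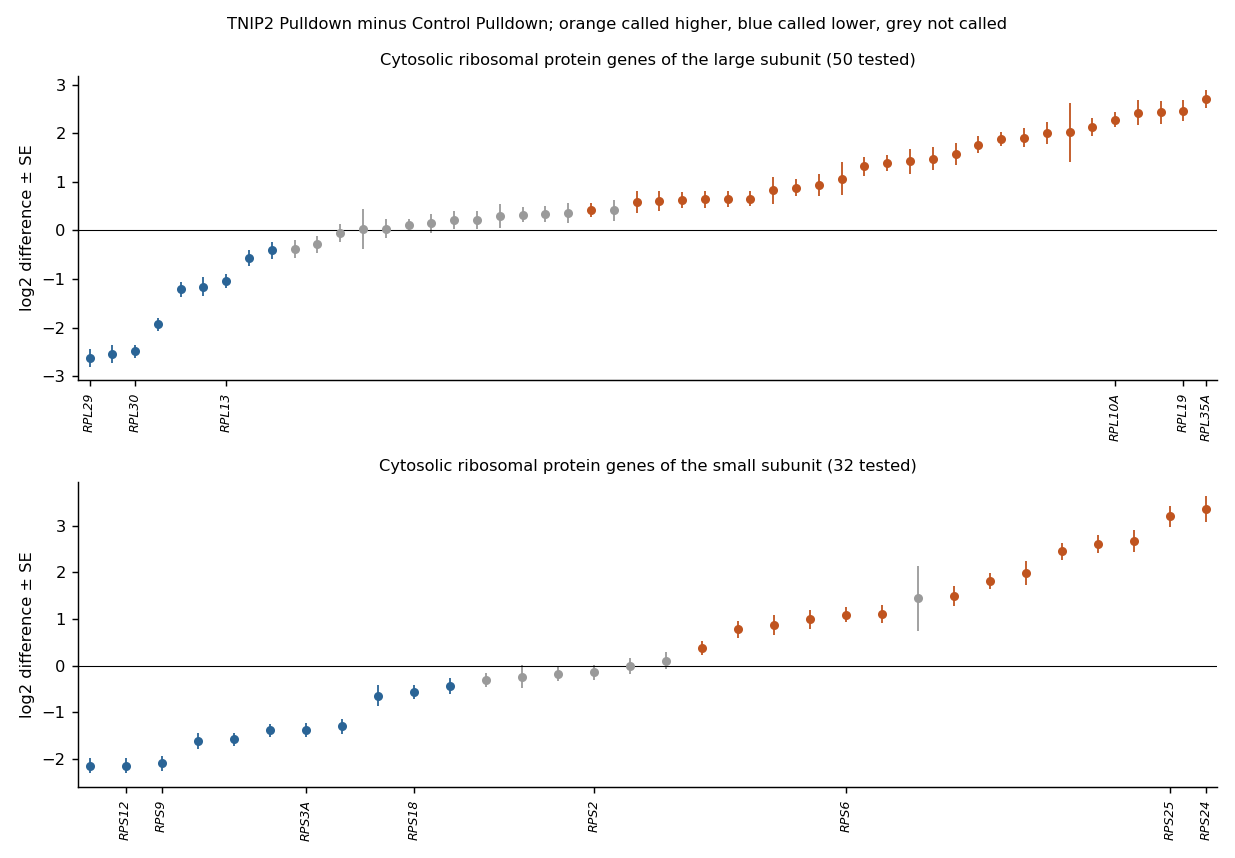
Fitted log2 difference, TNIP2 Pulldown minus Control Pulldown, of each cytosolic ribosomal protein gene tested, with its standard error, ordered by value within the 50 genes of the large subunit (top) and the 32 of the small subunit (bottom); genes named in the text carry a label. Orange marks genes called higher, blue called lower and grey not called, and values run from -2.62 to 2.71 and from -2.14 to 3.35.

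Ribosomal protein messages share a known feature, a start of the transcript with C followed by a run of pyrimidines, through which their translation is regulated together. The bases around the start were read for those with a single RefSeq entry (GRCh38.p14), and are shown for members at both ends to let the reader compare them. The first 10 bases precede the annotated start, and capitals mark an unbroken run of C and T from the first transcribed base.
RPS24, higher, chr10:78033853-78033882, plus strand: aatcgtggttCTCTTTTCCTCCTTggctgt
RPS25, higher, chr11:119018324-119018353, minus strand: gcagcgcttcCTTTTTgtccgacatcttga
RPL35A, higher, chr3:197950180-197950209, plus strand: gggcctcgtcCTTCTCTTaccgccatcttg
RPL29, lower, chr3:51995876-51995905, minus strand: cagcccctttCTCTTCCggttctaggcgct
RPS12, lower, chr6:132814559-132814588, plus strand: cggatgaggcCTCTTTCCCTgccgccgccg
RPS9, lower, chr19:54200848-54200877, plus strand: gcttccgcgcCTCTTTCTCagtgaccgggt
A run of at least 5 was present in 21 of 28 genes called higher (75%), 12 of 13 called lower (92.3%) and 8 of 14 not called (57.1%), compared with 5.17% of all 35116 RefSeq start windows of the same length. Those windows were not limited to single entries or by chromosome. The run was thus found at both ends of the range. It describes these letters only, on the transcribed strand and at the annotated start.

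Factors of translation were likewise split, with 20 of 56 higher and 24 lower (median -0.17, but -0.52 after quantile normalization and after the centring). EEF1A1, the elongation factor that delivers aminoacyl-tRNA, had 125753, 129942 and 134623 normalized counts in Control Pulldown and 37274, 31389 and 26682 in TNIP2 Pulldown (log2 -2.05, SE 0.18, adjusted p = 3.9e-07). EEF1G, a subunit of its exchange factor, had a log2 difference of -1.45, and EIF4EBP2, which binds and inhibits the cap-binding protein, -2.36. Initiation factors were among the highest: EIF1, which governs start codon choice, had 1750, 1634 and 1616 against 11560, 14168 and 9500 (log2 2.80, SE 0.15), EIF4G1, the scaffold of the cap-binding complex, 2.31, and EIF2S2, a subunit of the factor that brings initiator tRNA, 2.30. EEF2, the translocation factor, had 48214, 45749 and 46040 against 55904, 77224 and 63678, a log2 difference of 0.48 (adjusted p = 0.018) that turned to -1.19 under quantile normalization. The EEF2 call also ended under the centring (0.13, adjusted p = 0.52), without the filter (adjusted p = 0.12), with the 6 Pulldown libraries alone (adjusted p = 0.064) and when Control Pulldown replicate 2 (adjusted p = 0.055), its replicate 3 (adjusted p = 0.052) or replicate 2 of TNIP2 Pulldown (log2 0.35, adjusted p = 0.065) was left out. Aminoacyl-tRNA synthetase genes, which encode the enzymes that charge tRNAs, had 9 of 37 higher and 14 lower (median -0.20, but -0.45 after quantile normalization and -0.54 after the centring), including WARS2, of mitochondria (-1.94), SARS (1.67) and RARS2 (1.44).

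NF-kB signalling components, the pathway TNIP2 is known for, were higher at close to the background share, 16 of 47, with 9 lower and a median of 0.23 that turned to -0.12 under the centring. The 4 members with the lowest p are described here. NFKBIA, encoding the inhibitor, had 246, 155 and 200 normalized counts in Control Pulldown and 1912, 2346 and 1216 in TNIP2 Pulldown (log2 3.15, SE 0.23, adjusted p = 5.7e-08). TNFAIP3, encoding A20, had 57, 40 and 53 against 227, 257 and 202 (log2 2.18, SE 0.21, adjusted p = 7.2e-07). MAP3K8, encoding TPL-2, had 46, 45 and 35 against 171, 188 and 180 (log2 2.08, SE 0.24, adjusted p = 3.9e-06). All 3 had every TNIP2 Pulldown library above every Control Pulldown library, and all 3 differed more in Pulldown than in Input (Input log2 differences -0.04, -0.06 and 0.08). Members named from this and the other lists were picked by a low Pulldown p. Both properties follow largely from that choice and give no further support. NFKB1, which encodes the p105 precursor and p50 subunit, had 441, 372 and 409 against 1343, 1382 and 1086 (log2 1.63, SE 0.14).

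Immediate early genes had the highest share called higher among the lists with at least 10 members tested. Of 35 such genes, which cells switch on within minutes of a stimulus and whose messages are short-lived, 28 were higher and 0 lower (median 1.42), against 31.6% and 29.2% of all genes. JUN, a subunit of the AP-1 transcription factor, had 1988, 2003 and 2260 normalized counts in Control Pulldown and 10910, 16148 and 17697 in TNIP2 Pulldown (log2 2.81, SE 0.17, adjusted p = 2e-08). JUNB (log2 2.30), IER3 (1.98) and IER5 (1.07) were also higher in all 3 libraries. In the extracts the same list had a median of 0.29 between constructs, with no member called. Of 14 ID, HES and BHLHE genes, which encode helix-loop-helix repressors, 10 were higher and 1 lower (median 1.38). HES1, a target of Notch signalling, had 341, 407 and 359 against 2588, 3350 and 1581 (log2 2.70, SE 0.21), and HEY2 had a log2 difference of 1.42. The exception was HES4, with 1701, 1626 and 1806 against 236, 248 and 313 (log2 -2.69, SE 0.17, adjusted p = 1.8e-08), where every library of the fragment was low.

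HOX genes, the homeobox genes that set position along the body axis, had 23 of 35 higher and 4 lower (median 1.16), 1 of the latter taken in through Control Pulldown alone. HOXC6 had 137, 147 and 114 normalized counts against 1042, 1337 and 1136 (log2 3.13, SE 0.17, adjusted p = 7.9e-09). HOXD11 (2.03), HOXA6 (1.83) and HOXA5 (1.61) followed, with no overlap between groups in any of the 4. In RefSeq, HOXC6 shares 100% of its bases with other gene models, HOXC4 and HOXC5 among them. HOXA5 and HOXA6 each share 100% with HOXA3 and HOXA-AS3, while HOXD11 shares none. Reads of several HOX genes may thus be pooled, and these genes are not separate observations to that degree. Numbered zinc finger genes were near the background, with 148 of 441 higher and 102 lower (median 0.14, and -0.21 under the centring), although single genes were far from 0: ZNF706 at 3.21, ZNF77 at 2.97, ZNF512B at 2.45 and ZNF589 at -2.35. Of the called ones, 2 higher and 2 lower had passed the limit through 1 group alone and had to differ. The ZSCAN, ZKSCAN and ZBTB genes had 20 of 62 higher and 19 lower (median 0.17, 0.05 after quantile normalization and -0.18 after the centring), with ZBTB18 (2.22) and ZBTB38 (1.90) higher and ZBTB8A (-1.32) lower.

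Genes for proteins that bind AU-rich and GU-rich elements in messages had 14 of 22 higher and 3 lower (median 1.10). RC3H2, a roquin that recognises stem-loops, had 1166, 1232 and 1318 normalized counts against 4113, 3663 and 3575 (log2 1.61, SE 0.13). YBX3 (1.65) and KHSRP (1.52), both RNA-binding proteins, were higher, and IGF2BP3 had 988, 1065 and 876 against 323, 301 and 373 (log2 -1.55, SE 0.15). RNA decay genes as a whole were closer to the background, with 20 of 50 higher and 15 lower and a median of 0.17 that was -0.10 after quantile normalization and -0.18 after the centring. Members of 1 complex went opposite ways: LSM3 had 1337, 1444 and 1339 against 6764, 6752 and 5122 (log2 2.17, SE 0.17), and LSM2, of the same ring of proteins that caps the ends of decaying messages, had 859, 793 and 591 against 191, 197 and 159 (log2 -2.02, SE 0.17). DDX6, a helicase of decapping, was lower (-1.70), and EXOSC10, an exosome nuclease, higher (1.45). Of 49 DEAD-box and DEAH-box helicase genes, 20 were higher and 12 lower (median 0.08, but -0.10 after quantile normalization and -0.26 after the centring), including DDX28 (2.63), DHX32 (2.20), DDX47 (1.62) and DDX1 (-2.09). Splicing proteins of the hnRNP and SR families had 13 of 32 higher and 6 lower (median 0.20, but -0.16 after quantile normalization and -0.15 after the centring), and here too single members diverged, with SRSF2 at 2.57 (5109, 5335 and 4892 against 28155, 41224 and 24078 normalized counts), SRSF8 at 1.57, HNRNPL at 1.21 and SRSF9 at -1.88.

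**Figure D4:**
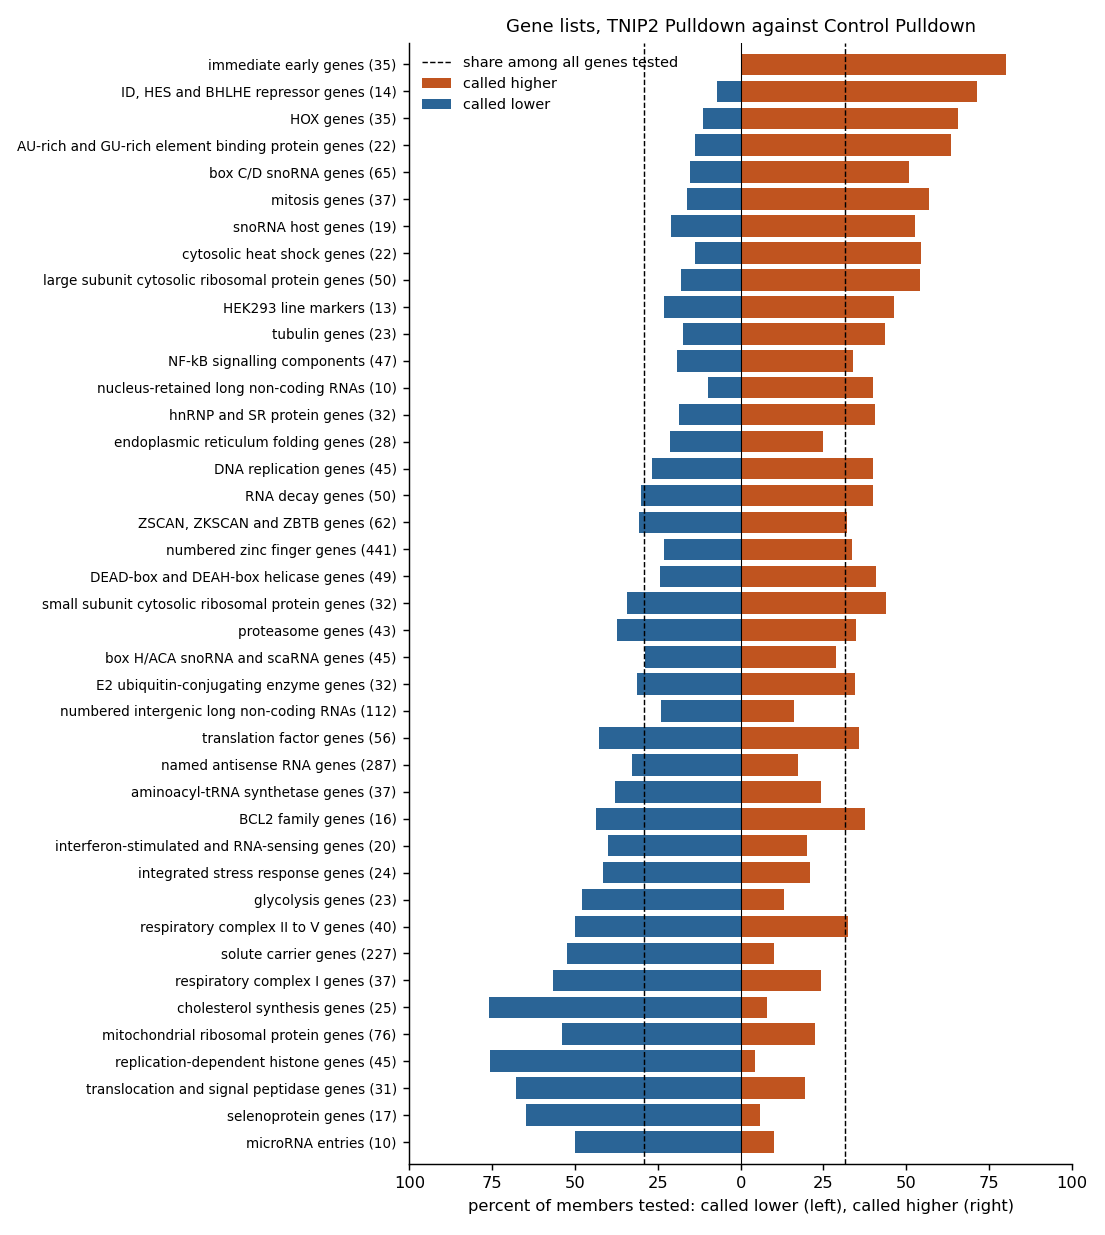
For each gene list with at least 10 members tested (number in brackets), the percent of members called higher (orange, right) and called lower (blue, left) in TNIP2 Pulldown, ordered by median log2 difference. Dashed lines mark the shares among all genes tested, 31.6% higher and 29.2% lower, and the lists run from immediate early genes at the top to microRNA entries at the bottom.

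Genes of mitosis had 21 of 37 higher and 6 lower (median 0.81, but 0.28 after quantile normalization and 0.47 after the centring). CCNB1, the cyclin that drives entry into mitosis, had 2019, 1831 and 1818 normalized counts in Control Pulldown and 12751, 12617 and 14143 in TNIP2 Pulldown (log2 2.80, SE 0.15, adjusted p = 8.3e-09). KIF20A, a kinesin of cytokinesis, had 699, 588 and 553 against 3403, 4188 and 2884 (log2 2.50), and UBE2C, the ubiquitin-conjugating enzyme of the anaphase-promoting complex, 1154, 1098 and 912 against 6375, 6347 and 4084 (log2 2.39). CKS1B, a subunit of cyclin-dependent kinases, was low in all 3 libraries of the fragment, at 1575, 1594 and 1445 against 441, 543 and 328 (log2 -1.84). DNA replication genes had 18 of 45 higher and 12 lower, with a median of 0.17 that was negative after quantile normalization (-0.21) and after the centring (-0.18). PCNA, the sliding clamp, had 4345, 4278 and 4218 against 32145, 27664 and 25865 (log2 2.73, SE 0.15, adjusted p = 8.4e-09). MCM10 (2.22) and RPA3 (2.15) were higher, and POLD2, a subunit of DNA polymerase delta, lower (-1.52).

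Replication-dependent histone genes, whose messages end in a stem-loop instead of a poly(A) tail, had 34 of 45 lower and 2 higher (median -1.03). HIST1H3B had 2729, 4307 and 4692 normalized counts against 906, 575 and 597 (log2 -2.49, SE 0.21, adjusted p = 2.5e-07). HIST1H3F (-2.82), HIST1H3H (-2.65) and HIST1H4H (-2.20) were as low, with no overlap between groups, which their choice by low p favours. These genes, HIST1H3B included, were also lower in every Control Pulldown library than in every Control Input library. Histone genes are near-identical to one another in part, which leaves the assignment of reads among them uncertain.

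Chaperone genes were read by compartment. Cytosolic heat shock genes had 12 of 22 higher and 3 lower (median 0.69, but 0.33 after quantile normalization and 0.34 after the centring). The list's median difference from Control Pulldown was 0.51, 0.51 and 1.03 in the 3 TNIP2 Pulldown libraries, highest in replicate 3. HSP90AB1, the constitutive Hsp90, had 6498, 6742 and 6526 normalized counts against 29060, 31253 and 29256 (log2 2.18, SE 0.18), and HSPA1B, an inducible Hsp70 with a near-identical copy, 1269, 1008 and 934 against 7747, 7881 and 15464 (log2 3.21, SE 0.35). In TNIP2 Input HSPA1B had 1075, 1051 and 2997, highest in replicate 3 as well, and the part of that replicate's extract in these values was not tested. STIP1, which links Hsp70 and Hsp90, had 1.98 and DNAJB6 1.27. Folding genes of the endoplasmic reticulum had 7 of 28 higher and 6 lower, with a median of 0.19 that was 0.01 after quantile normalization and -0.16 after the centring. HSP90B1, the Hsp90 of that compartment, had 8108, 7008 and 5695 against 63781, 58923 and 41195 (log2 2.97, SE 0.21, adjusted p = 5.6e-08), with PPIB (2.35), P4HB (1.31) and TXNDC11 (1.09) also higher. Genes of the CCT chaperonin, which folds actin and tubulin, had 2 of 9 higher, CCT5 (1.75) and CCT8 (1.30), and 4 lower, among them CCT6B (-1.40) and CCT6A (-0.86).

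Integrated stress response genes had 5 of 24 higher and 10 lower (median -0.25, but -0.53 after quantile normalization and -0.60 after the centring). XBP1, a transcription factor of the unfolded protein response, had 3196, 3216 and 2498 normalized counts against 662, 526 and 843 (log2 -2.15, SE 0.20), and ATF4, the central factor of the response, 12172, 12596 and 12703 against 5272, 5251 and 4330 (log2 -1.34, SE 0.14). SLC7A11, a cystine transporter, was also lower (-1.44), while CEBPB, a transcription factor, was higher (2.31). Interferon-stimulated and RNA-sensing genes had 4 of 20 higher and 8 lower (median -0.24, but -0.45 after quantile normalization and -0.59 after the centring). IRF3, a transcription factor of the interferon response, had 576, 591 and 525 against 181, 141 and 259 (log2 -1.58), and IFI6 (-2.06) and ISG15 (-1.56) were lower too. IRF3 shares bases with BCL2L12, named above as higher.

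Genes of protein entry into the endoplasmic reticulum were mostly lower. Of 31 genes of translocation, signal recognition and signal peptidase, 21 were lower and 6 higher (median -1.15). SRP9, of the signal recognition particle, had 10058, 10507 and 10870 normalized counts in Control Pulldown and 1818, 1915 and 1750 in TNIP2 Pulldown (log2 -2.52, SE 0.13, adjusted p = 5.9e-09). SRPRB, of its receptor, had 1778, 1718 and 1427 against 316, 180 and 303 (log2 -2.66, SE 0.20). OSTC, of the oligosaccharyltransferase, went the other way, with 1870, 1750 and 1791 against 12271, 8265 and 6876 (log2 2.30, SE 0.18). Solute carrier genes, which encode membrane transporters, had 119 of 227 lower and 23 higher (median -0.67, and -1.02 after the centring). Of the lower ones, 1 was taken in through Control Pulldown alone. SLC30A9, named for zinc transport, had 2893, 3057 and 2899 against 464, 445 and 400 (log2 -2.76, SE 0.12, adjusted p = 3.2e-09), and SLC50A1 (-2.56), SLC35A5 (-2.13) and SLC30A5 (-1.68) were lower as well. Selenoprotein genes, whose messages are decoded with selenocysteine at UGA, had 11 of 17 lower and 1 higher (median -1.20). MSRB1, a methionine sulfoxide reductase, had 183, 168 and 177 against 19, 25 and 53 (log2 -2.54), and SEP15 had -1.80. The higher one was SELK, a small membrane protein of the endoplasmic reticulum, with 848, 928 and 732 against 4956, 4413 and 4407 (log2 2.46, SE 0.19).

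Metabolic genes were lower more often than higher. In cholesterol synthesis 19 of 25 genes were lower and 2 higher (median -0.92). CYP51A1, the lanosterol demethylase, had 3706, 3342 and 3409 normalized counts against 843, 481 and 567 (log2 -2.50, SE 0.20, adjusted p = 1.1e-07), followed by IDI1 (-1.30) and FDPS (-1.01), enzymes of the same route. Glycolysis genes had 11 of 23 lower and 3 higher (median -0.34, but -0.76 after quantile normalization and -0.69 after the centring). TPI1, triose phosphate isomerase, had 7586, 7684 and 8170 against 2080, 1473 and 1815 (log2 -2.14), PFKL and PGAM1 had -0.92 and -0.79, and PFKFB3, which makes an activator of glycolysis, had 1.90.

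Mitochondrial genes encoded in the nucleus had a lower majority with strong exceptions. Of 76 genes for proteins of the mitochondrial ribosome, 41 were lower and 17 higher (median -1.02), with MRPS25 at -2.52, MRPL55 at -2.35 and, at the other end, MRPS28 with 266, 264 and 260 normalized counts against 2741, 2610 and 2118 (log2 3.23, SE 0.15, adjusted p = 3.6e-09). Complex I genes of the respiratory chain had 21 of 37 lower and 9 higher (median -0.70). NDUFS7 (-2.88) and NDUFB11 (-2.45) were low, whereas NDUFB6 had 702, 684 and 674 against 5623, 3316 and 3895 (log2 2.60) and NDUFC1 had 2.52. Genes of complexes II to V had 20 of 40 lower and 13 higher (median -0.57, and -0.91 after the centring). ATP5I, a small subunit of ATP synthase, had 1229, 1450 and 1422 against 14031, 12577 and 8675 (log2 3.08, SE 0.18), while COX5A, of cytochrome oxidase, had 1781, 1761 and 1652 against 274, 202 and 265 (log2 -2.82, SE 0.17). UQCR11 (-2.73) and ATP5G1 (-2.56) were lower.

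Subunits of a single complex also diverged in the proteasome and among tubulins. Proteasome genes had 15 of 43 higher and 16 lower (median 0.05, and -0.30 after quantile normalization and after the centring). PSMA7, a subunit of the core, had 2752, 2317 and 2427 normalized counts against 22124, 22548 and 19480 (log2 3.10, SE 0.17, adjusted p = 8.4e-09), and PSMC6 had 2.45, while PSMB5, another core subunit, had 1137, 1288 and 1238 against 389, 263 and 363 (log2 -1.87), and PSMG1, an assembly chaperone, -1.92. Among 23 tubulin genes, 10 were higher and 4 lower (median 0.28, and -0.07 under the centring). TUBA1C had 845, 774 and 813 against 4683, 4460 and 3788 (log2 2.40, SE 0.14), and TUBA1B, its close relative, 5109, 4994 and 4788 against 1001, 821 and 928 (log2 -2.44, SE 0.14). TUBB6 (2.48) was higher and TUBA1A (-2.20) lower, although reads shared among these similar genes are uncertain. E2 ubiquitin-conjugating enzyme genes had 11 of 32 higher and 10 lower, including UBE2Q1 (1.43), UBE2O (1.24) and UBE2Q2 (-1.32). BCL2 family genes, which govern cell death at mitochondria, had 6 of 16 higher and 7 lower. BCL2L11, encoding the death-promoting BIM, had 215, 189 and 232 against 2350, 3665 and 1227 (log2 3.37, SE 0.34, adjusted p = 1.1e-06), with BBC3 (2.17) and BCL2 (2.10) also higher and BID (-1.65) lower. Of 3 metallothionein genes tested, MT2A was called, and MT1X and MT1F had 0.62 and -0.71 with adjusted p = 0.098 and 0.18; the call of MT1X was made with library weights (adjusted p = 0.0051) and without TNIP2 Pulldown replicate 3 (adjusted p = 0.0045), and that of MT1F with the centring (adjusted p = 0.033) and without TNIP2 Pulldown replicate 1 (adjusted p = 0.049).

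Small structured RNAs, which lack a poly(A) tail, lay in both directions. RPPH1, the RNA of RNase P, had 28553, 27641 and 25614 normalized counts in Control Pulldown and 2160, 1066 and 3765 in TNIP2 Pulldown (log2 -3.73, SE 0.37, adjusted p = 9.6e-07). RMRP, the RNA of RNase MRP, had 11713, 15365 and 12552 against 1974, 780 and 1835 (log2 -3.21, SE 0.32), and TERC, the telomerase RNA, 430, 662 and 624 against 81, 78 and 83 (log2 -2.79, SE 0.19). These 3 were all the other small structured RNAs tested, and each was low in every library of the fragment. All 3 were also lower in every Control Pulldown library than in every Control Input library, where RPPH1 had 135033, 92506 and 71766. The U1 variant RNVU1-19 (-2.04) and the minor spliceosomal RNU11 (-1.53) were lower, with the call of RNVU1-19 ending without Control Pulldown replicate 1 (-1.48, adjusted p = 0.057). The RNVU1-19 groups overlapped, at 355, 167 and 73 against 38, 90 and 17. With 2820, 3108 and 2970 in Control Input, RNVU1-19 was itself low in Control Pulldown. Box C/D snoRNAs, which guide methylation of ribosomal RNA, had 33 of 65 higher and 10 lower (median 0.92, but 0.57 after the centring and 1.89 under the stricter filter of 50). Among the called ones, 4 higher and 6 lower had passed the limit of 10 through the libraries of 1 group alone and had to differ. SNORD30 had 9, 11 and 10 against 152, 346 and 93 (log2 3.96, SE 0.40, adjusted p = 1.2e-06), SNORD28 and SNORD27 had 2.85 and 2.62, and SNORD88C, one of those that passed through Control Pulldown alone, had 23, 30 and 18 against 0, 1 and 0. Box H/ACA snoRNAs and scaRNAs, which guide pseudouridylation and modify spliceosomal RNAs, had 13 of 45 higher and 13 lower, with 4 of the higher and 5 of the lower ones taken in through 1 group alone. Their median of -0.03 was 0.04 after quantile normalization, -0.38 after the centring and 1.11 under the stricter filter. SNORA63 had 17, 26 and 10 against 156, 226 and 199 (log2 3.46). With 126, 67 and 76 in Control Input, SNORA63 was itself low in Control Pulldown. SNORA32 had 2.62, SNORA71A had 57, 83 and 73 against 5, 7 and 10 (log2 -3.14), and SCARNA2 had 868, 1003 and 720 against 79, 61 and 146 (log2 -3.25).

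Within a pair of host genes nearly all snoRNAs were higher. Most snoRNAs lie in introns of other genes, and of 19 snoRNA host genes 10 were higher and 4 lower (median 0.81, but 0.08 after quantile normalization and 0.46 after the centring). SNHG1 had 2288, 2624 and 2854 normalized counts against 9810, 13727 and 8093 (log2 2.00, SE 0.22), SNHG6 had 2.24 and SNHG8 1.57, while SNHG20 had 418, 444 and 518 against 56, 57 and 58 (log2 -2.98, SE 0.15). All 8 snoRNAs within SNHG1 were higher, at 2.20 to 3.96 (median 2.73), and of 10 within GAS5, a host at 0.81, 9 were higher and 0 lower (median 1.78). These 2 hosts were chosen after their values were seen. Counts per gene do not separate a processed snoRNA from a piece of its host's intron, and snoRNAs of one host share their source.

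Of 1605 microRNA entries in the table, 10 reached the limit, with 1 higher and 5 lower (median -1.46, but 0.11 under the stricter filter). Of the 5, 4 passed the limit through Control Pulldown alone and had to differ, so that their calls support nothing. An entry counts reads of the hairpin's locus, not of the mature microRNA as such. MIR663A had 37, 43 and 43 normalized counts in Control Pulldown and 2, 1 and 4 in TNIP2 Pulldown. MIR3648 had 83, 46 and 51 against 2, 3 and 2, and MIR3687 had 92, 43 and 43 against 1, 2 and 4. MIR1304 had 6, 13 and 10 against 24, 77 and 32 (log2 1.97, SE 0.43, adjusted p = 0.0011), with 18, 21 and 29 in Control Input. MIR663A, MIR3648 and MIR3687 are among these 4, and were near 0 in every library of the fragment. In RefSeq, MIR3648 lies wholly within RNA45SN2, the ribosomal RNA precursor, MIR663A within its host MIR663AHG and MIR1304 within TAF1D, so that reads of those transcripts may be counted, and ribosomal RNA had been removed from all libraries. RefSeq (GRCh38.p14) held mature sequences for 6 of the 10, and those of MIR663A and MIR1304 are shown with bases 2 to 8, the seed that pairs with targets, in capitals. Host transcripts of clustered microRNAs were measured at far higher counts: MIR17HG, chosen after its values were seen, had 2635, 2966 and 2730 against 17017, 18098 and 6728 (log2 2.20, SE 0.28, adjusted p = 8.9e-06). The cluster it carries on chromosome 13 includes microRNAs of several seeds, of which the 5p forms of miR-17 and miR-20a share one, and the 3p forms of miR-19a and miR-19b another.
hsa-miR-663a: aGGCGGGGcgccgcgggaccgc
hsa-miR-1304-5p: uUUGAGGCuacagugagaugug
hsa-miR-17-5p: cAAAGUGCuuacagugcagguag
hsa-miR-20a-5p: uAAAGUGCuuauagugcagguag
hsa-miR-19a-3p: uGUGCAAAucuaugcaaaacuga
hsa-miR-19b-3p: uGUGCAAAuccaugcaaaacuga
hsa-miR-92a-3p: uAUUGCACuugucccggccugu

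By RefSeq class, 122 of 584 long non-coding RNAs (20.9%) were higher and 168 (28.8%) lower, compared with 4170 (32.4%) and 3792 (29.5%) of 12870 protein-coding genes and with 46 (45.5%) and 18 (17.8%) of 101 snoRNAs; 288 genes had no RefSeq match. A list drawn up as nucleus-retained RNAs had 4 of 10 higher and 1 lower (median 0.22, 0.10 after quantile normalization and -0.13 after the centring). Its member LINC00657, also called NORAD, is known as a mainly cytoplasmic RNA that binds Pumilio proteins, and had 7220, 7692 and 8051 normalized counts against 47700, 60439 and 20966 (log2 2.36, SE 0.30), JPX had 1.28, and MIAT, the lower one, had 17, 34 and 28 against 2, 7 and 1 and had passed the limit through Control Pulldown alone. Numbered intergenic RNAs had 18 of 112 higher, among them LINC00493 (2.78), and 27 lower, among them LINC00674 (-1.85). Of these calls, 2 higher and 4 lower had passed the limit through 1 group alone and had to differ. Named antisense RNAs had 50 of 287 higher and 94 lower. Among them, 2 higher and 18 lower ones were taken in through the libraries of 1 group alone and had to differ. LRRC75A-AS1, which hosts snoRNAs, had 10253, 9993 and 9188 against 1386, 1471 and 1212 (log2 -2.86, SE 0.13). RPARP-AS1 was at -2.52, NFYC-AS1 at -2.45 and SERTAD4-AS1 at 3.40. Antisense values are uncertain because the strand setting is unknown.

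Transcript length went with the difference. In quintiles of exonic length, the median log2 difference was -0.20 for the shortest genes (43 to 1841 bases), then -0.17, -0.02 and 0.11, and 0.38 for the longest (5589 to 93684 bases). The share called higher was 27.5% in the shortest and 43.5% in the longest quintile, and the share called lower 38.8% and 17.2%. The longest quintile had medians of 0.47, 0.49 and 0.24 in the 3 TNIP2 Pulldown libraries and -0.01 to 0.02 in Control Pulldown. Level went with it less evenly, with medians of -0.02, -0.12, -0.14, 0.10 and 0.49 from the lowest to the highest quintile of mean count. That mean includes the TNIP2 Pulldown values, which also make up the difference. The trend with level and its correlation are therefore partly built in, to an extent that was not tested. Across the 14155 genes, which share libraries and are not independent replicates, Spearman's rho was 0.18 with length and 0.14 with level. Length varied widely among the lists above, and its part in their values was not tested.

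**Figure D5:**
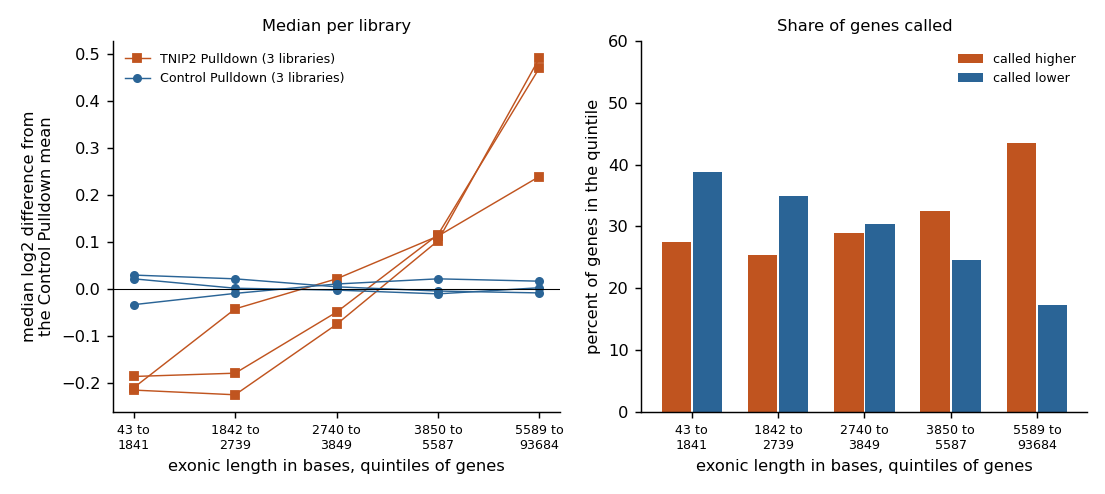
Left, median log2 difference from the Control Pulldown mean in each of the 6 Pulldown libraries, by quintiles of exonic length of the 14155 genes; the TNIP2 Pulldown lines (orange squares) run from about -0.2 upward to 0.24, 0.47 and 0.49, and the Control Pulldown lines (blue circles) stay near 0. Right, percent of genes in each quintile called higher (orange) and lower (blue).

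Markers of the line and of other cells were read in the same 6 libraries. HEK293 line markers summed to 7869 to 9387 normalized counts per library in Control Pulldown and 13681 to 14727 in TNIP2 Pulldown. Of 13 tested, 3 were lower and 6 higher, among the latter NEFL, a neurofilament, at 865, 854 and 914 against 4970, 5363 and 3484 (log2 2.37), with LHX1 (2.44) and PODXL (1.78). Of the higher ones, 1 was taken in through TNIP2 Pulldown alone. The 14 blood cell markers summed to 43 to 72 and 66 to 206, with 6 of them at 0 in all libraries of each group. The 13 fibroblast and endothelial markers summed to 77 to 159 and 150 to 192, with 6 and 2 at 0, and the 13 liver and gut epithelial markers to 438 to 525 and 525 to 600, with 4 and 4 at 0. Of the 3 epithelial markers tested 0 were called in limma. Among the other few, CD68 (1.83, adjusted p = 0.0021) and COL1A1 (1.09, adjusted p = 0.031) were called, at means under 100 normalized counts. The COL1A1 call was lost under several settings, among them the fit without Control Pulldown replicate 3 (0.44, adjusted p = 0.14).

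Few of these differences were measured in the extracts. Between TNIP2 Input and Control Input 1 gene of 14155 (0.00706%) was called, TNIP2 itself. Of the 8602 genes called in Pulldown, 8400 had an Input log2 difference under 0.5 in size. The difference of the 2 construct differences, Pulldown minus Input, passed for 6278 genes (44.4%). For GATA2 the Input log2 difference was 0.62 and the excess in Pulldown had adjusted p = 5.5e-06, for ID2 they were -0.12 and 5.2e-07, for RPS24 -0.30 and 9.3e-06, for EEF1A1 -0.49 and 0.00029, and for HRSP12 -0.26 and 6e-07. HSPA6, with 1.95 in Input, did not pass (adjusted p = 0.38).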

How the data were processed

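RNA was sequenced from 12 libraries, 3 in each of 4 groups. The normalized counts deposited by the authors, per gene symbol and library, are treated here as a score because they were rounded after scaling; FPKM values were deposited beside them. The submitters' processing notes name TopHat2 2.0.14, DESeq2 1.6.3 and hg19; counter, annotation and strand setting are not given in the sources used. Columns lettered F were taken as the fragment's by elimination, as the other letters fit other groups.

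Values were analysed as log2(normalized count + 1), which understates differences of low genes, with limma 3.58.1 (R 4.3.3): lmFit on all 12 libraries with a mean per group, eBayes with trend, 8 residual degrees of freedom, two-sided tests and Benjamini-Hochberg adjustment over 14155 genes. On data simulated for this comparison it recovered 95.0% of genes changed 2-fold and 100% of those changed 4-fold, with 19 false calls. The simulation gave all libraries the same mean profile and a fixed dispersion, and changed few genes, equally in both directions. In the data 60.8% of genes were called, so these figures check the code and do not give the recovery or false calls of the real comparison. Whole reads were recovered from FPKM steps; of values below 30 reads, 97.4% to 99.7% per Pulldown library lay within 0.1 of a whole number, and voom on those reads called 8349 genes. Depth intervals cover counting error only. Symbols were matched to RefSeq (GRCh38.p14), 13867 of 14155; exonic length was read from the ratio of both tables.

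The rule for named genes took TNIP2, the 15 highest and 15 lowest called genes with separate libraries and a higher mean of 100 or more (unnamed identifiers passed over), the 5 most abundant called in each direction, the 5 most abundant with a 95% interval within -0.5 to 0.5, and, per list, the 4 or fewer with the lowest p; other genes are said to be chosen after their values were seen. A few genes that the rule takes are not reported here. The members and the 48 gene lists were chosen with earlier results of these data known. Lists are described by counts and medians, without a test. Alternatives were quantile scaling, centring on ribosomal protein genes, pseudocounts of 0.5 and 5, no filter, filters of 50 and over all 12 columns, FPKM with 0.1 added, the 6 Pulldown libraries alone, library weights, voom on recovered reads, thinned reads, replicate blocks and leaving out each library.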

Additional observations from a re-analysis of the deposited data

Results flagged for a closer look

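The difference between constructs in Pulldown was set against the same difference in the extracts, within 1 fit. Among all genes tested, 6278 had a construct difference in Pulldown that differed from that in Input (limma, adjusted p under 0.05). Of 201 genes named in the text, 190 did so, each in the direction seen in Pulldown. The other 11 did not pass, 8 of them called in Pulldown: TNIP2, HSPA6, RPS18, CD68, COL1A1, RNU11, RNVU1-19 and CCT6B. Most of the named genes were picked for their Pulldown difference, which is part of this contrast, and 1 gene was called in Input. The high share in the same direction thus followed from that choice and gives no further support.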

How the results depend on the processing

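Centring on ribosomal protein genes gave 2929 genes higher, 1827 higher at least 2-fold and 3708 lower at least 2-fold, in place of 4471, 2871 and 2440; in the other settings these counts, the number lower and the TNIP2 difference stayed within 1.5 times and on their side of the threshold. Of the 8602 calls, 82.1% were kept under centring and 89.4% or more in each other setting. Leaving out single libraries gave 4083 to 4731 genes higher, 3716 to 4375 lower, 5377 to 7232 whose construct difference differed between Pulldown and Input, log2 differences of 6.74 to 7.99 for TNIP2, and 0.52 to 0.68 for the longest minus the shortest quintile of genes.

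Centring turned the sign of 15 of 48 list medians, among them NF-kB components (-0.12), endoplasmic reticulum folding (-0.16), RNA decay (-0.18), epithelial markers (-0.14) and ZSCAN, ZKSCAN and ZBTB genes (-0.18). Quantile normalization turned 9, among them RNA decay (-0.10) and large subunit ribosomal proteins (-0.22). The stricter filter, which tests fewer genes, turned 2, microRNA entries (0.11) and box H/ACA snoRNAs (1.11). EEF2 was at -1.19 under quantile normalization. For the scaling choices the cause was not tested.

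Replicate numbers did not pair the Pulldown groups: deviations of same-numbered libraries from their group means correlated at -0.01, 0.06 and -0.03. With the replicate block 4634 genes were higher and 4252 lower. Same-numbered Pulldown and Input libraries of the fragment correlated at 0.38, 0.47 and 0.50, those of the tag alone at 0.06 to 0.08; a random block of these numbers gave 4489 higher and 4135 lower, and 7733 genes whose construct difference differed between Pulldown and Input, against 6278. A count model on recovered reads was planned as an alternative and was run, but its values were not kept and are not reported here. Library weights came from an estimate that did not converge. Depth limits low genes in Control Pulldown, where 1 read was worth up to 2.86 normalized counts.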
